A study of Narcissus tazetta subsp. chinensis with 8 samples.

Results

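A pair of assembled genes of the Chinese narcissus is described here, 2 of the 50576 genes listed for both corolla and petal. Their best hits in Swiss-Prot are enzymes of benzylisoquinoline alkaloid synthesis. The first, c106745.graph_c0, has S-norcoclaurine synthase of Thalictrum flavum as its Swiss-Prot best hit. The second, c100255.graph_c0, has codeine O-demethylase of Papaver somniferum, the opium poppy. They were taken by identifier and had been chosen by their FPKM values and the authors' corolla calls, and they carry a description because the authors called both changed between days in corolla. Their levels and changes are therefore given as a description, without a test.

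RNA came from the scented cultivar Jinzhanyintai of Narcissus tazetta var. chinensis, grown outdoors in a plantation. The 4 groups were corolla on day 7, at full bloom, corolla on day 1, at early flowering, petal on day 7 and petal on day 1, with 2 libraries each. The number of flowers or plants behind a library is not labelled, nor is the way corolla and petal were parted, so errors and p-values measure the spread between these libraries only. Levels are FPKM, fragments per kilobase of a transcript over all mapped fragments of its library, which allows levels of different genes to be set side by side. Genes have the identifiers of a de novo assembly and no coordinates here. Corolla and petal were deposited in separate tables, so every level or difference set across the tissues also crosses tables.

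Norcoclaurine synthases belong to the Bet v 1 family, small proteins with a ligand-binding cavity that include the pathogenesis-related PR-10 proteins. In Thalictrum and poppy the enzyme joins dopamine with 4-hydroxyphenylacetaldehyde, the first committed step towards benzylisoquinoline alkaloids. Narcissus makes Amaryllidaceae alkaloids instead, which start from norbelladine, and norbelladine synthase is a Bet v 1 protein related to norcoclaurine synthase. Codeine O-demethylase is an iron and 2-oxoglutarate dependent dioxygenase that turns codeine into morphine in opium poppy. A best hit does not show that a narcissus protein has that activity. The Pfam annotation of c106745.graph_c0 is the Bet v I family, and its Nr best hit is a norcoclaurine synthase-like protein of oil palm. The annotations of c100255.graph_c0 diverge beyond the dioxygenase family. Its Pfam domains are the N-terminal domain of dioxygenases in morphine synthesis and the iron and 2-oxoglutarate dependent oxygenase domain. Its Nr best hit is a flavonol synthase/flavanone 3-hydroxylase-like protein of oil palm, and such enzymes act in flavonoid synthesis.

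The norcoclaurine synthase-like gene was among the most abundant transcripts of young corolla and was much lower at full bloom. In corolla c106745.graph_c0 had 164.88 and 158.35 FPKM on day 7, against 1526.49 and 1348.5 FPKM on day 1. The means were 162 ± 4.62 FPKM on day 7 and 1437 ± 126 FPKM on day 1 (SD, n = 2 each), which makes day 1 8.89-fold higher than day 7. In corolla it ranked 713 and 682 among the 64490 listed genes on day 7, and 54 and 64 on day 1. It held 0.0197% and 0.0191% of all FPKM in the day 7 corolla libraries and 0.180% and 0.157% in those of day 1.

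In petal the same gene was lower throughout and its days lay closer together. Petal had 55.48 and 54.93 FPKM of c106745.graph_c0 on day 7, against 105.26 and 92.51 FPKM on day 1. The petal means were 55.2 ± 0.389 FPKM on day 7 and 98.9 ± 9.02 FPKM on day 1 (SD, n = 2 each), 1.79-fold higher on day 1. Corolla exceeded petal 2.93-fold on day 7 and 14.5-fold on day 1. The 4 groups thus ran, from high to low, corolla day 1, corolla day 7, petal day 1 and petal day 7. No neighbours in that order overlapped, although corolla day 7 exceeded petal day 1 by 1.63-fold only.

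The codeine O-demethylase-like gene ran the other way, with young corolla as its low point. In corolla c100255.graph_c0 had 72.77 and 59.81 FPKM on day 7, against 8.27 and 11.47 FPKM on day 1. The means were 66.3 ± 9.16 FPKM on day 7 and 9.87 ± 2.26 FPKM on day 1 (SD, n = 2 each), 6.72-fold higher on day 7. The petal libraries had 65.36 and 79.67 FPKM on day 7, against 46.53 and 49.92 FPKM on day 1. These gave means of 72.5 ± 10.1 FPKM on day 7 and 48.2 ± 2.40 FPKM on day 1 (SD, n = 2 each), 1.50-fold higher on day 7. In rank it stood at 1794 and 1943 in the corolla day 7 libraries and at 10252 and 8741 in those of corolla day 1.

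The order of the groups for c100255.graph_c0 was petal day 7, corolla day 7, petal day 1 and corolla day 1, from high to low. Corolla and petal overlapped on day 7, where their means stood at a ratio of 0.914. Corolla day 7 and petal day 1 did not overlap, at a ratio of 1.37. On day 1 petal exceeded corolla 4.89-fold, so 3 of the 4 groups lay between 46.53 and 79.67 FPKM and corolla day 1 lay apart below them.

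**Figure D1:**
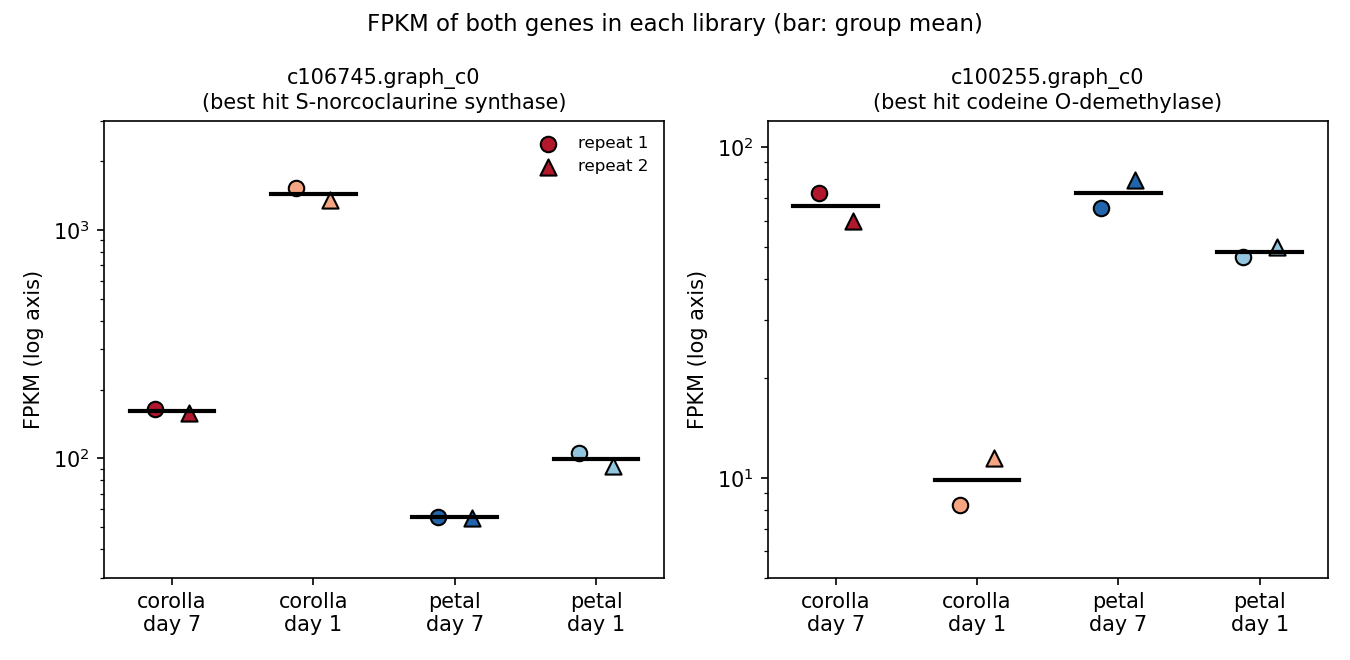
FPKM per library on a log axis for c106745.graph_c0 (left) and c100255.graph_c0 (right) in the 4 groups, with circles for repeat 1, triangles for repeat 2 and horizontal bars for group means. The first gene stands highest in corolla on day 1 (1437 FPKM on average), where the second stands lowest (9.87 FPKM).

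The balance between both genes set young corolla apart from the other groups. The level of c106745.graph_c0 was 2.27 and 2.65 times that of c100255.graph_c0 in the day 7 corolla libraries, against 185 and 118 times in those of day 1. In petal it was 0.849 and 0.689 times on day 7, against 2.26 and 1.85 times on day 1. Petal on day 7 was thus the group in which the codeine O-demethylase-like gene was the more abundant of the pair. Over the 8 libraries the log2(FPKM + 1) values of both genes correlated at Pearson's r = -0.943, a description over libraries that share 4 groups and 1 assembly. In bulk tissue fewer cells of a type and less RNA per cell cannot be told apart.

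On the log2(FPKM + 1) scale, c106745.graph_c0 differed by -3.14 ± 0.09 (limma SE) between day 7 and day 1 in corolla and by -0.83 ± 0.13 in petal. For c100255.graph_c0 the same differences were 2.64 ± 0.19 in corolla and 0.57 ± 0.15 in petal. The sign was the same in both tissues for each gene, and the size was greater in corolla. The day difference in corolla minus that in petal was -2.32 ± 0.17 for c106745.graph_c0 and 2.07 ± 0.26 for c100255.graph_c0. Between corolla and petal, c106745.graph_c0 differed by 1.53 ± 0.12 on day 7 and by 3.85 ± 0.12 on day 1. Between corolla and petal, c100255.graph_c0 differed by -0.13 ± 0.18 on day 7 and by -2.19 ± 0.18 on day 1. The day 7 value of the second gene lay within its own error, and it changed sign when either repeat 2 library of that day was left out (0.01 at most).

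In both tissues the libraries of day 7 and day 1 did not overlap for either gene. Of all genes tested in corolla, 37.1% had days that did not overlap with day 7 lower, and 26.5% with day 7 higher. In petal these shares of all genes tested were 33.0% and 26.0%, so with 2 libraries a group a lack of overlap is no rare pattern. Size set both genes further apart in corolla than in petal. Both were chosen by FPKM and the authors' corolla calls, so this is no independent result. Of 22407 genes tested in corolla, 71 (0.317%) had a lower log2 difference between day 7 and day 1 than c106745.graph_c0, and 117 (0.522%) had a higher one than c100255.graph_c0. In petal 2455 (10.5%) and 3316 (14.2%) of 23433 genes did so.

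Corolla and petal did not overlap for c106745.graph_c0 on either day, with corolla higher, as held for 19.6% of all genes tested on day 7 and 24.2% on day 1. For c100255.graph_c0 corolla lay below petal on day 1 alone, as held for 35.3% of genes on that day, against 29.3% on day 7. The position of each gene by size of the difference depended on the day. Of 26460 genes tested, 411 (1.55%) stood higher in corolla relative to petal on day 7 than c106745.graph_c0, and 21 (0.0794%) on day 1. For c100255.graph_c0, 12094 (45.7%) stood lower on day 7 and 285 (1.08%) on day 1. The day effect in corolla minus that in petal was more negative than that of c106745.graph_c0 in 89 genes (0.336%), and more positive than that of c100255.graph_c0 in 137 (0.518%).

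**Figure D2:**
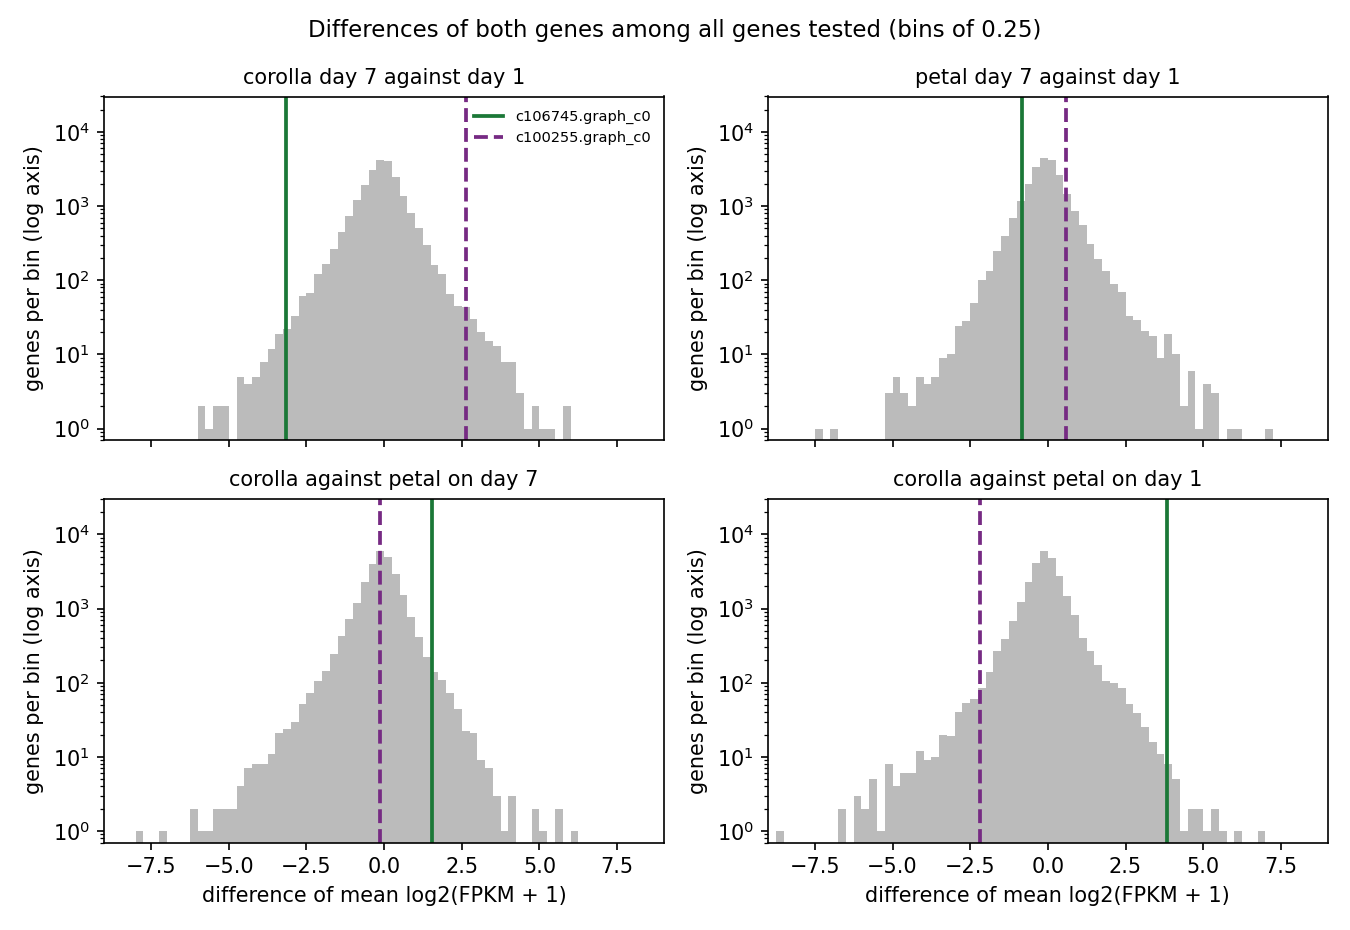
Histograms of the log2(FPKM + 1) difference over all tested genes, 1 panel per comparison, with a logarithmic count axis and a line for each of both genes. In corolla, day 7 against day 1, the lines stand at -3.14 and 2.64, in opposite tails, and in petal they stand at -0.83 and 0.57, nearer the centre.

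In the authors' deposited table c106745.graph_c0 was marked as down in corolla, with a log2 fold change of -3.22, and was not called in petal, with -0.87. In the authors' deposited table c100255.graph_c0 was marked as up in corolla, with 2.80, and was not called in petal, with 0.60. The read counts deposited for corolla show the depth behind these values. Counts of c106745.graph_c0 were 2851 and 2070 on day 7, against 29035 and 21109 on day 1. Counts of c100255.graph_c0 were 1919 and 1168 on day 7, against 219 and 251 on day 1. Its day 1 level in corolla thus rested on the fewest reads. After division by the relative depth of the libraries the mean counts of c106745.graph_c0 were 2833 on day 7 and 27249 on day 1, 9.62-fold higher on day 1. Those of c100255.graph_c0 were 1754 on day 7 and 261 on day 1, 6.72-fold higher on day 7. Petal counts of both genes cannot be given, since counts for petal were deposited only for the genes called there.

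Markers of other cells and tissues were read from the same libraries. Only genes the authors called between days carry a description, so a missing match does not show that a tissue was absent. Both petal identity genes with a description, a PISTILLATA-like gene (c106110.graph_c1) and an APETALA3-like gene (c95429.graph_c0), were present in all 8 libraries, and no described gene matched AGAMOUS, which specifies stamens and carpels. Summed over both, petal identity was 173 to 178 FPKM in corolla on day 7 and 471 to 510 FPKM on day 1, and 44.7 to 59.3 FPKM in petal on day 7 and 254 to 288 FPKM on day 1. The 14 chlorophyll a-b binding genes, markers of green tissue, summed to 328 to 334 FPKM in corolla on day 7 and 1247 to 1370 FPKM on day 1. In petal they summed to 315 to 340 FPKM on day 7 and 831 to 841 FPKM on day 1, and 1 of the 14 (c103030.graph_c1) was listed at 0 in 1 corolla day 7 library. The green tissue and petal identity sums were thus both higher on day 1 in both tissues, as c106745.graph_c0 was. Across tissues the green tissue sums of corolla and petal overlapped on day 7, where c106745.graph_c0 was higher in corolla. That overlap covers opposite differences of single genes. On day 7 c96066.graph_c0 had 33.04 and 22.52 FPKM in corolla against 181.47 and 175.4 FPKM in petal. In the same libraries c102430.graph_c0 had 220.98 and 224.21 FPKM in corolla against 108.04 and 83.26 FPKM in petal. The green tissue and petal identity sums were both higher in petal on day 1 than in corolla on day 7, the reverse of c106745.graph_c0. The 7 pollen and anther genes summed to 144 to 240 FPKM in corolla on day 7 and 129 to 186 FPKM on day 1, and to 50.0 to 54.6 FPKM in petal on day 7 and 84.1 to 106 FPKM on day 1. Their sum covers opposite movements, since in corolla 3 of the 7 lay above and 4 below their day 1 libraries on day 7, and in petal 3 lay above, 3 below and 1 overlapped. In corolla c109664.graph_c0 had 4.13 and 3.25 FPKM on day 7 against 49.75 and 46.71 FPKM on day 1, while c95015.graph_c0 had 126.67 and 69.62 FPKM on day 7 against 29.55 and 61.88 FPKM on day 1. The part of these tissues in the levels of both genes was not tested.

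The described genes most like c106745.graph_c0 over the 8 libraries were mostly plastid genes by their names. Only genes the authors called between days carry a description, and all 5 named here carry it from corolla. Genes without an informative description were passed over, some of them with a higher r. The names therefore come from a list already chosen for a change between days. Likeness was Pearson's r of log2(FPKM + 1) among 26459 genes, without a test, and it is a description because the libraries share groups, depth and sampling. Among described genes the closest was chloroplast ribosomal protein S9 (c93636.graph_c0, r = 0.995). A gene whose Swiss-Prot hit is 2-hydroxyisoflavanone dehydratase, and whose Nr hit is tuliposide A-converting enzyme 2, came next (c106190.graph_c0, r = 0.995). It had 3.17 and 2.50 FPKM in corolla on day 7 against 11.66 and 11.50 FPKM on day 1, and 1.19 and 1.08 FPKM in petal on day 7 against 1.65 and 1.49 FPKM on day 1. Protochlorophyllide reductase (c106566.graph_c0, r = 0.994), the peptidyl-prolyl isomerase CYP38 (c101809.graph_c0, r = 0.994) and magnesium-chelatase subunit ChlI (c100099.graph_c0, r = 0.993) followed. The reductase and the chelatase subunit act in chlorophyll synthesis, and CYP38 is known for its part in building photosystem II in Arabidopsis. Without the 2 libraries farthest from the median of c106745.graph_c0, r stayed between 0.944 and 0.985 for all 5.

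The described genes most like c100255.graph_c0, picked in the same way, had varied names. They were serine acetyltransferase 5 (c109395.graph_c1, r = 0.987), an enzyme of cysteine synthesis, the calcium signalling kinase CBL-interacting protein kinase 1 (c102772.graph_c0, r = 0.985) and actin-depolymerizing factor 5 (c105726.graph_c2, r = 0.981). The homeobox-leucine zipper protein HAT22 (c92246.graph_c0, r = 0.981) and the cytochrome P450 CYP72A219 (c109521.graph_c0, r = 0.980) completed the 5. Serine acetyltransferase 5 had 109.17 and 94.10 FPKM in corolla on day 7 against 40.75 and 50.51 FPKM on day 1, and 113.5 and 115.58 FPKM in petal on day 7 against 82.55 and 84.10 FPKM on day 1. Like c100255.graph_c0 it had its low point in young corolla. For actin-depolymerizing factor 5 and HAT22 the likeness rested largely on corolla day 1. Without the 2 libraries farthest from the median of c100255.graph_c0, r was 0.413 and 0.616 for those 2 genes and 0.922 to 0.973 for the other 3.

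**Figure D3:**
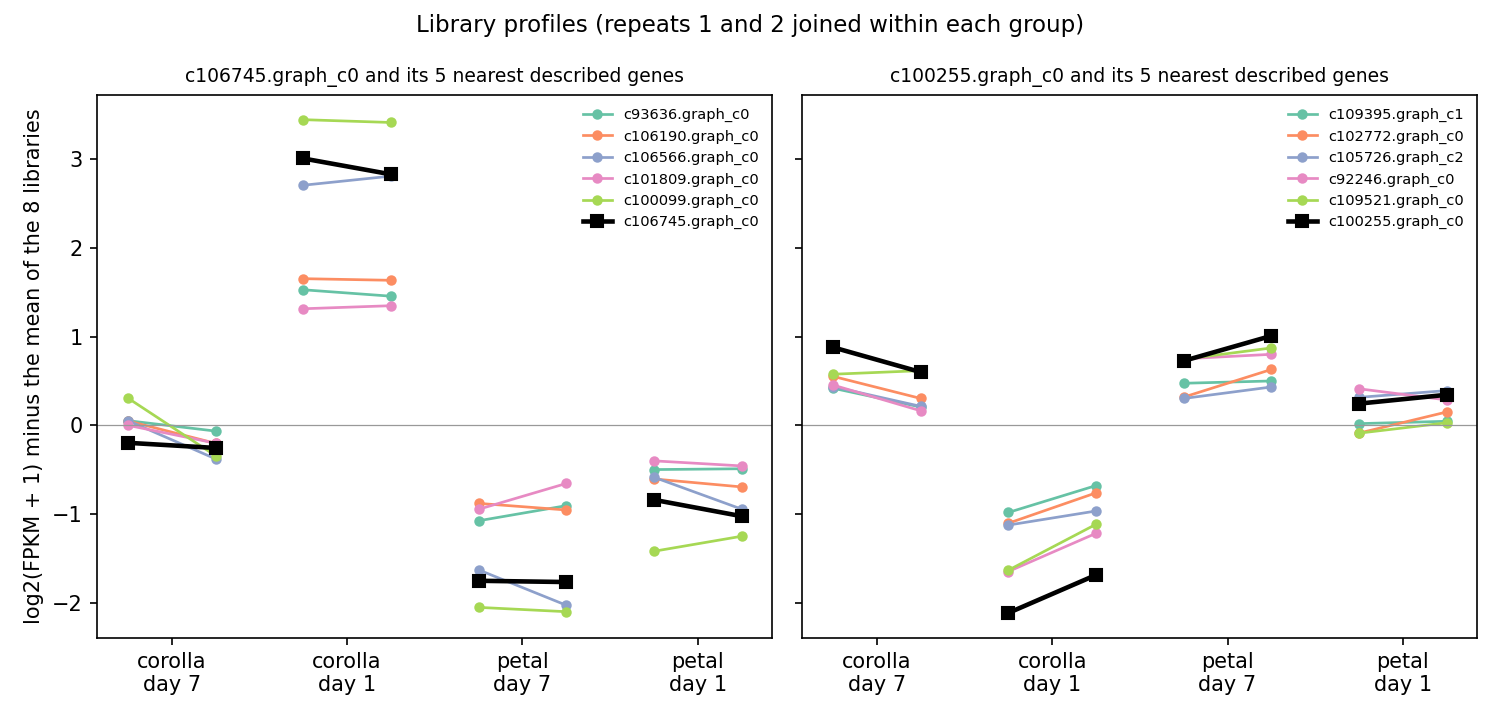
Profiles over the 8 libraries of c106745.graph_c0 (left) and c100255.graph_c0 (right), drawn bold, with the 5 described genes most like each, as log2(FPKM + 1) minus the mean of the gene. The left profiles peak in both corolla day 1 libraries and the right profiles have their lowest points there.

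The Bet v 1 family, to which c106745.graph_c0 belongs by Pfam, had 3 further described genes with its domain. The word list for the family also held c104090.graph_c0, matched by its norcoclaurine synthase name alone, which is left out of the family counts here. A description is carried only by a gene called by the authors, and the counts here and in the lists that follow are therefore no independent evidence of direction. In corolla 1 of the 3 was higher and 1 lower on day 7, beside 6.52% of all genes tested called higher and 15.0% called lower (limma, FDR 0.05). In petal 2 were higher and 1 lower, beside 4.12% and 6.05% of all genes. The median log2 difference of the 3 was 0.64 in corolla and 1.51 in petal (0.29 and 0.18 with c104090.graph_c0), against -0.06 and -0.05 over all genes tested.

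The family member nearest to c106745.graph_c0 in level and direction was a major latex protein-like (MLP-like) gene (c88947.graph_c0). It had 361.12 and 389.07 FPKM in corolla on day 7, against 1874.91 and 1679.72 FPKM on day 1, means of 375 ± 19.8 and 1777 ± 138 FPKM (SD, n = 2 each). Petal had 12.02 and 11.72 FPKM on day 7, against 124.1 and 80.84 FPKM on day 1. From day 1 it fell by 2.24 ± 0.10 in corolla (log2 ± SE, limma adjusted p = 0.00138) and fell by 2.97 ± 0.23 in petal (limma adjusted p = 0.00712). It was also higher in corolla than in petal, by 4.87 ± 0.19 on day 7 and 4.13 ± 0.19 on day 1 (limma adjusted p = 5.97e-06 and 1.24e-05), and its r with c106745.graph_c0 was 0.913. Both genes thus had corolla day 1 as their highest group.

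The other family members moved the opposite way or in 1 tissue. Pathogenesis-related protein 1 (c108112.graph_c0), a defence-related Bet v 1 protein by its Pfam domain, had 13.86 and 7.68 FPKM in corolla on day 7, against 0.09 and 0.42 FPKM on day 1. Its petal values were 48.68 and 66.06 FPKM on day 7, against 14.06 and 26.43 FPKM on day 1. It rose in corolla by 3.19 ± 0.35 (limma adjusted p = 0.00628) and in petal by 1.51 ± 0.32 (limma adjusted p = 0.0468). A further MLP-like gene (c95577.graph_c0) had 12.07 and 3.27 FPKM in corolla on day 7, against 3.26 and 4.36 FPKM on day 1, groups that overlapped (limma adjusted p = 0.468). In petal it had 319.95 and 256.36 FPKM on day 7, against 17.59 and 46.33 FPKM on day 1, and rose by 3.28 ± 0.44 (limma adjusted p = 0.017). The day effect of c95577.graph_c0 in corolla was not shown to differ from that in petal (-2.63 ± 0.77, limma adjusted p = 0.221).

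The gene that shares the norcoclaurine synthase name did not share the pattern of c106745.graph_c0. The Swiss-Prot hit of c104090.graph_c0 is S-norcoclaurine synthase 1 of Coptis, which is a dioxygenase-type protein, and its Pfam domains are those of the dioxygenases and not Bet v I. It had 47.25 and 53.62 FPKM in corolla on day 7, against 48.16 and 57.83 FPKM on day 1, and these groups overlapped (-0.07 ± 0.13, limma adjusted p = 0.758). In petal it had 27.40 and 34.05 FPKM on day 7, against 59.53 and 79.42 FPKM on day 1, and fell by 1.14 ± 0.20 (limma adjusted p = 0.0296). Its day effect in corolla minus that in petal was 1.08 ± 0.26 and did not pass (limma adjusted p = 0.135). Without the FPKM filter the petal calls of c104090.graph_c0, c95577.graph_c0 and c108112.graph_c0 ended (limma adjusted p = 0.101, 0.0600 and 0.158). The petal call of c108112.graph_c0 also ended with a pseudocount of 0.1 (limma adjusted p = 0.0594), and the day 7 difference of c104090.graph_c0 between corolla and petal (0.70 ± 0.18, limma adjusted p = 0.0451) ended without the filter (0.0785).

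The dioxygenase family of c100255.graph_c0 had 16 further described genes, of which 14 were tested in corolla and 15 in petal. In corolla 7 were higher and 6 lower on day 7, beside 6.52% and 15.0% of all genes. In petal 6 were higher and 6 lower, beside 4.12% and 6.05% of all genes. Their median log2 difference was 0.50 in corolla and -0.22 in petal. The relative closest by name was thebaine 6-O-demethylase (c103730.graph_c0), which in opium poppy acts on thebaine in the same pathway as codeine O-demethylase. It had 29.34 and 26.25 FPKM in corolla on day 7, against 6.06 and 7.59 FPKM on day 1. In petal it had 56.35 and 74.57 FPKM on day 7, against 14.24 and 19.08 FPKM on day 1. It rose by 1.88 ± 0.15 in corolla (limma adjusted p = 0.00342) and by 1.91 ± 0.21 in petal (limma adjusted p = 0.0118).

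Like c100255.graph_c0, the thebaine 6-O-demethylase-like gene was thus higher at full bloom, with r = 0.881 between both. Unlike it, c103730.graph_c0 was lower in corolla than in petal on day 7 as well (-1.20 ± 0.20, limma adjusted p = 0.00818) as on day 1 (-1.17 ± 0.20, limma adjusted p = 0.00602). Its day effect was not shown to differ between the tissues (-0.03 ± 0.28, limma adjusted p = 0.990). Its Nr hit is a protein SRG1-like sequence, so its annotations also diverge. The gene with an SRG1 Swiss-Prot hit (c98445.graph_c0) shares the Nr hit name of c100255.graph_c0, flavonol synthase/flavanone 3-hydroxylase-like. It had 3.14 and 2.04 FPKM in corolla on day 7, against 0.18 FPKM in 1 day 1 library and a listed 0 in the other. In petal it had 4.28 and 5.56 FPKM on day 7, against 1.97 and 2.99 FPKM on day 1. It rose in corolla (1.71 ± 0.30, limma adjusted p = 0.0204), did not pass in petal (0.77 ± 0.28, limma adjusted p = 0.138), and had r = 0.962 with c100255.graph_c0.

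Several other dioxygenases, with other known roles, also had large day effects. A gibberellin 2-beta-dioxygenase, of a class that inactivates gibberellins (c101837.graph_c0), had 35.59 and 4.71 FPKM in corolla on day 7 against 0.12 and 0.04 FPKM on day 1, and 72.52 and 43.26 FPKM in petal on day 7 against 0.98 and 1.90 FPKM on day 1. It rose by 3.74 ± 0.88 in corolla and 4.57 ± 0.32 in petal (limma adjusted p = 0.0436 and 0.00712). Gibberellin 2-beta-dioxygenase 8 (c99087.graph_c0) rose by 1.93 ± 0.47 and 2.97 ± 0.22 (limma adjusted p = 0.0484 and 0.00712). The 1-aminocyclopropane-1-carboxylate oxidase homolog (c103697.graph_c2), named after the last enzyme of ethylene synthesis, fell by 2.34 ± 0.28 and 1.38 ± 0.30 (limma adjusted p = 0.00767 and 0.0483). An alkB-type dioxygenase (c94295.graph_c0), from a family that repairs alkylated nucleic acids, fell by 1.33 ± 0.16 in corolla and 1.98 ± 0.25 in petal (limma adjusted p = 0.00757 and 0.015). Without the FPKM filter the corolla calls of c101837.graph_c0, c99087.graph_c0 and c98445.graph_c0 and the petal calls of c103697.graph_c2 and c94295.graph_c0 ended (limma adjusted p = 0.116, 0.129, 0.0895, 0.259 and 0.0522). With a pseudocount of 0.1 those of c99087.graph_c0 in corolla and c103697.graph_c2 in petal ended (limma adjusted p = 0.0616 and 0.0523).

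**Figure D4:**
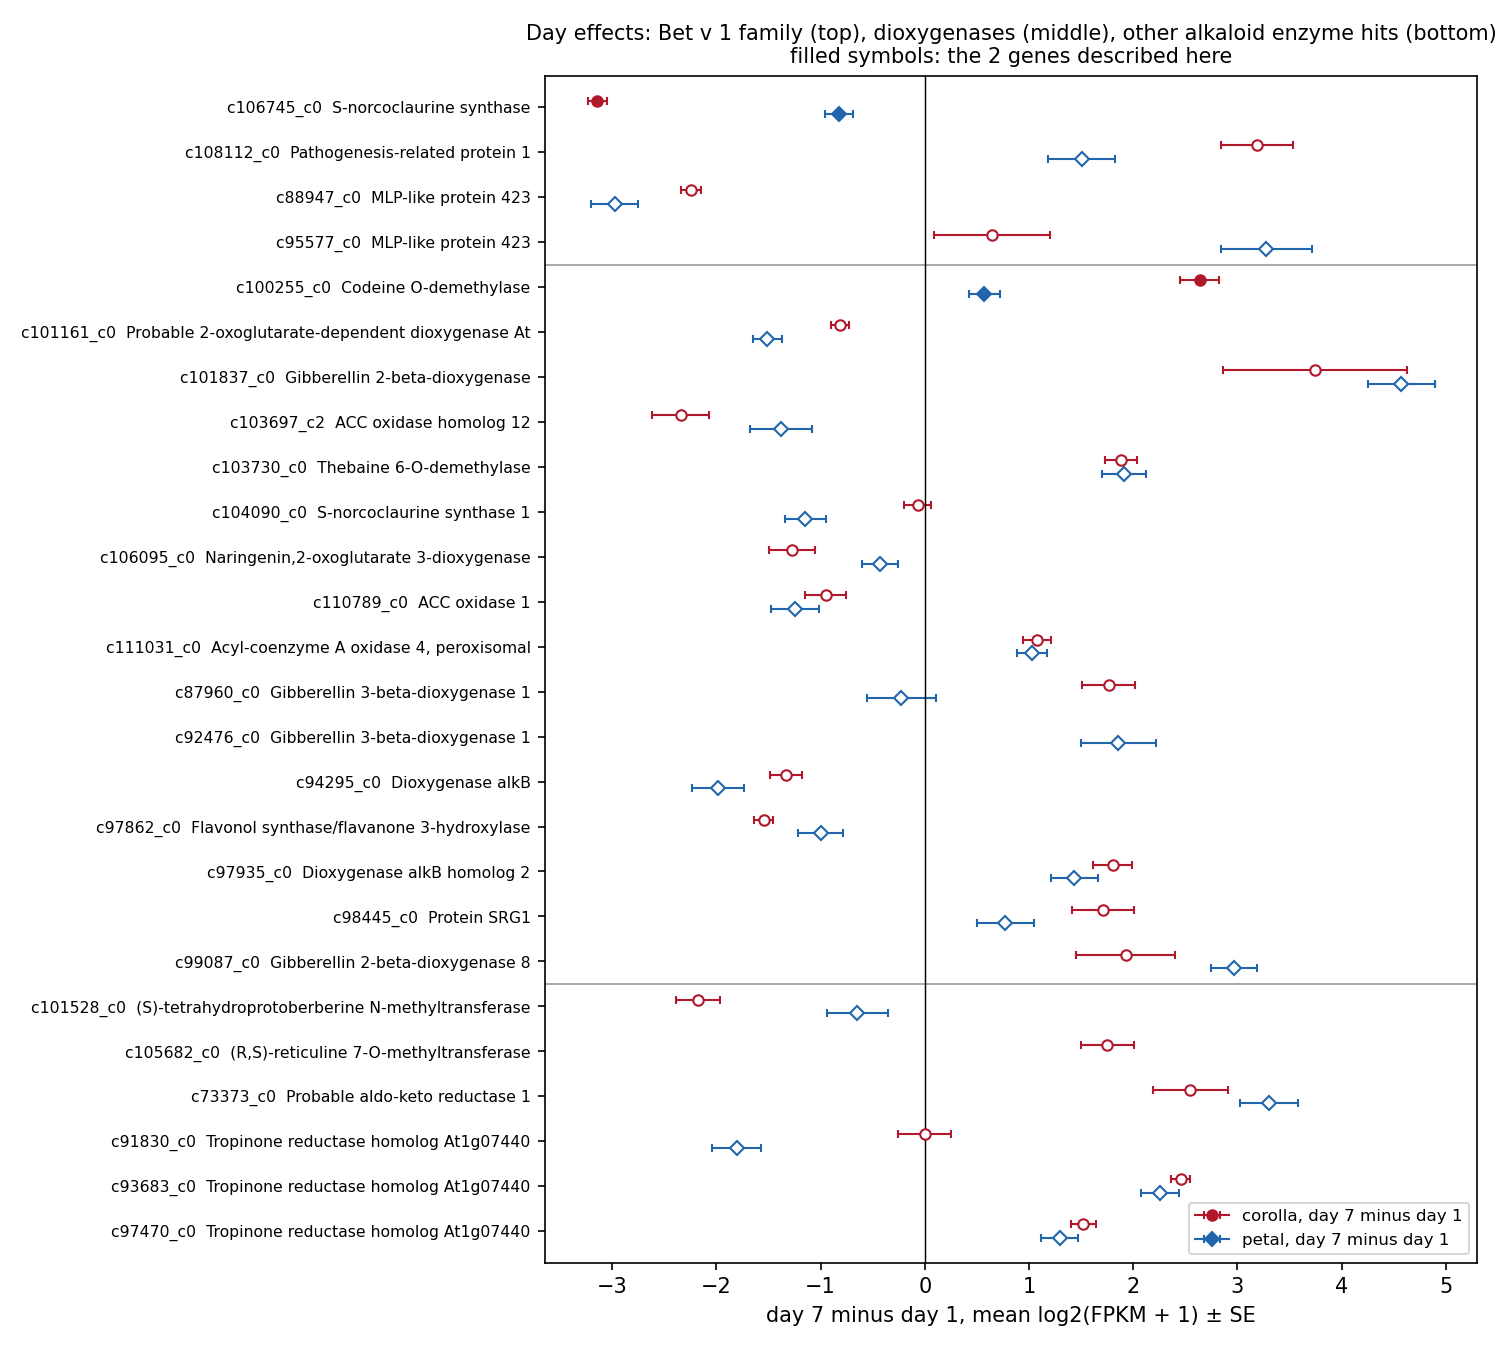
Log2(FPKM + 1) difference between day 7 and day 1 (± limma SE) for Bet v 1 genes (top), dioxygenases (middle) and further alkaloid enzyme hits (bottom), in corolla (red circles) and petal (blue diamonds), with filled symbols for the 2 genes described here; a missing symbol is a gene not tested in that tissue. The codeine O-demethylase-like gene (2.64 in corolla, 0.57 in petal) differs more between the tissues than the thebaine 6-O-demethylase-like gene (1.88 and 1.91).

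Further genes with the name of an alkaloid enzyme or its homolog in the Swiss-Prot or Nr best hit numbered 8. The thebaine 6-O-demethylase-like and the second norcoclaurine synthase-named gene are included. In corolla 5 were higher and 1 lower on day 7, against 6.52% and 15.0% of all genes. In petal, where 7 were tested, 4 were higher and 2 lower, against 4.12% and 6.05% of all genes. Their median log2 difference was 1.64 in corolla and 1.29 in petal. The list holds names of several alkaloid classes and tropinone reductase homologs, whose family also has members outside alkaloid synthesis. The homologs c93683.graph_c0 and c97470.graph_c0 and a perakine reductase-like gene (c73373.graph_c0) were among the 5 higher in corolla. The last is named by its Nr hit after an indole alkaloid enzyme of Rauvolfia, and its Swiss-Prot hit is a probable aldo-keto reductase. In corolla c73373.graph_c0 had 8.85 and 4.30 FPKM on day 7, against 0.26 and 0.21 FPKM on day 1. It rose by 2.55 ± 0.36 in corolla and 3.30 ± 0.28 in petal (limma adjusted p = 0.0122 and 0.00849).

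Among the tropinone reductase homologs, c93683.graph_c0 had 189.46 and 192.93 FPKM in corolla on day 7, against 32.13 and 36.04 FPKM on day 1, and rose by 2.46 ± 0.09 in corolla and 2.25 ± 0.18 in petal (limma adjusted p = 0.00128 and 0.00799). A further homolog, c91830.graph_c0, had 7.18 and 9.46 FPKM in petal on day 7, against 37.50 and 26.16 FPKM on day 1, and fell there by 1.81 ± 0.24 (limma adjusted p = 0.0165), while in corolla it stayed between 1.15 and 1.69 FPKM. The gene with a (S)-tetrahydroprotoberberine N-methyltransferase hit (c101528.graph_c0), an enzyme that methylates benzylisoquinoline-derived alkaloids, was the 1 that fell in corolla. It had 1.41 and 1.04 FPKM there on day 7, against 9.49 and 8.61 FPKM on day 1 (-2.18 ± 0.21, limma adjusted p = 0.00475). In direction it went with c106745.graph_c0, and the other 5 that passed in corolla went with c100255.graph_c0. Without the FPKM filter the petal calls of c91830.graph_c0 and of the homolog c97470.graph_c0 ended (limma adjusted p = 0.0555 and 0.0642). The corolla call of c105682.graph_c0, with a (R,S)-reticuline 7-O-methyltransferase hit, ended too (limma adjusted p = 0.0675), as with all 8 libraries in 1 fit (0.0661). This gene, counted among the 5, had 2.38 and 2.72 FPKM in corolla on day 7. On day 1 it had 0.11 FPKM in 1 corolla library and a listed 0 in the other.

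Precursors of benzylisoquinoline alkaloids come from tyrosine, and those of Amaryllidaceae alkaloids also from phenylalanine through 4-hydroxycinnamate. All 8 described genes of that list passed in corolla, 4 higher and 4 lower on day 7 (6.52% and 15.0% of all genes). In petal, of 7 tested, 1 was higher and 3 lower (4.12% and 6.05% of all genes). The median log2 difference was 0.15 in corolla and -0.59 in petal. Arogenate dehydrogenase 2 (c55524.graph_c0), which makes tyrosine, had 115.97 and 170.31 FPKM in corolla on day 7, against 15.51 and 28.01 FPKM on day 1, and rose by 2.69 ± 0.32 (limma adjusted p = 0.00812). Petal had 43.07 and 67.74 FPKM on day 7, against 21.48 and 30.34 FPKM on day 1 (1.05 ± 0.27, limma adjusted p = 0.0691).

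A polyphenol oxidase (c105091.graph_c0), an enzyme class that oxidises phenols, had 20.07 and 12.97 FPKM in corolla on day 7, against 0.83 and 1.36 FPKM on day 1, and rose by 3.05 ± 0.28 (limma adjusted p = 0.00439). An arogenate/prephenate dehydratase (c106196.graph_c0), on the branch to phenylalanine, rose by 2.79 ± 0.08 in corolla and 3.16 ± 0.15 in petal (limma adjusted p = 0.00121 and 0.00447). A further gene of that name (c98687.graph_c0) went the other way in corolla (-2.51 ± 0.26, limma adjusted p = 0.00544). It had 0.52 and 0.76 FPKM there on day 7, against 9.84 and 7.02 FPKM on day 1. In petal c98687.graph_c0 did not pass (-0.59 ± 0.29, limma adjusted p = 0.242). The 3 phenylalanine ammonia-lyase genes fell in both tissues. Corolla changes were -3.50 ± 0.10 for c103612.graph_c0, -1.46 ± 0.12 for c78531.graph_c0 and -0.68 ± 0.16 for c93919.graph_c0 (limma adjusted p = 0.00121, 0.00346 and 0.0447). Petal changes were -1.89 ± 0.22, -2.36 ± 0.29 and -2.86 ± 0.27 in the same order (limma adjusted p = 0.0123, 0.0146 and 0.00965). Without the FPKM filter the corolla call of c93919.graph_c0 and the petal call of c78531.graph_c0 ended (limma adjusted p = 0.122 and 0.0515), the first also with all 8 libraries in 1 fit (0.0798).

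Between the tissues the relatives had no common direction. Of the 3 Bet v 1 genes by Pfam, 1 was higher and 2 were lower in corolla than in petal on day 7, with the same counts on day 1. Beside this, 4.06% of all genes were called higher and 6.24% lower on day 7, and 6.11% and 7.80% on day 1. Of 15 dioxygenases tested, 3 were higher and 3 lower on day 7, and 1 was higher and 3 lower on day 1. Of the 8 alkaloid enzyme hits, 2 were higher and 4 lower on day 7, and 1 was higher and 3 lower on day 1. Of the 8 precursor genes, 4 were higher and 3 lower on day 7, and 1 was higher and 1 lower on day 1. The difference of the day effect between tissues passed limma's adjusted threshold in 0 of the 24 Bet v 1, dioxygenase and alkaloid genes. Of these 24, 11 had an unadjusted limma p under 0.05, beside 2986 of all 26460 genes tested. The 24 carry a description because the authors called them between days, so the 11 are no independent evidence about these families. The same difference passed in 2 of the 8 precursor genes, beside 0.261% of all genes called positive and 0.393% called negative (FDR 0.05). With TMM factors the calls over all genes on day 7 were 1812 higher and 1565 lower, against 1074 and 1652 without them. Of 20 list calls on day 7, 9 passed without corolla day 7 repeat 2 and 13 without repeat 1, and of 12 on day 1, 6 passed without corolla day 1 repeat 1.

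The 28 list calls in corolla were refitted without each library in turn. In either tissue such a fit leaves 1 library in a group, so the spread between repeats comes from the other group alone. The counts change with that estimate and do not show on which library a call rests. Without day 7 repeat 1 or repeat 2, 23 or 24 of them passed. Without day 1 repeat 1 or repeat 2, 0 passed, and over all genes 0 passed limma's adjusted threshold while 5139 and 5551 had an unadjusted p under 0.05. Of the 23 list calls in petal, 15 passed without day 7 repeat 2 and 0 without any 1 of the other 3 libraries (6603, 3186 and 3594 genes at an unadjusted p under 0.05 without day 7 repeat 1, day 1 repeat 1 and day 1 repeat 2).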

How the data were processed

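Libraries were made from poly-A RNA with an Illumina kit, per the labels' protocols. Bowtie and RSEM are named, without versions, per the submitters' processing notes, and for the tool behind the authors' calls the sources used here give no name. For each tissue the authors deposited FPKM of all genes beside an FDR (a p-value adjusted for multiple tests) and a log2 fold change, per the file headers. Read counts and descriptions were deposited by the authors only for called genes, 1929 of them with a description. The labels do not state strand-specific counting or how reads shared by near-identical family members were assigned, so levels of related genes are uncertain to that extent.

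FPKM is not a count, so differences were fitted on log2(FPKM + 1) by limma 3.58.1 under R 4.3.3, which understates the change of low genes, with a trend in the prior variance, two-sided tests and Benjamini-Hochberg adjustment at FDR 0.05 over all genes tested. The design had named a count test if the full tables held counts. Genes needed 1 FPKM in 2 libraries, of the 4 of a tissue for the day comparisons and of all 8, over genes in both tables, for tissue comparisons and the interaction. Both genes passed every filter. edgeR 4.0.16 was used only for TMM factors, which are an alternative scaling. At least 1 FPKM was reached by 23336 to 26172 genes in the corolla libraries and by 23508 to 29601 in the petal libraries. Total depth is unknown. Relative depth, the median count per FPKM over called genes with counts of 100 or more, was 0.997 and 0.738 in corolla day 7 and 1 and 0.829 in corolla day 1 (873 genes), and 0.983 and 0.655 in petal day 7 and 1 and 0.811 in petal day 1 (474 genes). Repeats differed beyond counting noise in 41.7% to 46.4% of called genes, so none was taken for a copy of another. Fits were tested on simulated data.

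The genes, lists and tests were chosen with earlier results of these data known. Lists were built from description words, and whether Pfam was searched besides Swiss-Prot and Nr was decided after the descriptions were read. Besides both genes, the text names the 5 described genes most like each and those named like either. Of each list it names up to 4 passing genes with the greatest absolute day effect per tissue. The genes c98445.graph_c0, c105682.graph_c0, c97470.graph_c0 and c98687.graph_c0 were added after their values were seen. So were the pollen markers c109664.graph_c0 and c95015.graph_c0 and the green tissue markers c96066.graph_c0 and c102430.graph_c0. The Bet v 1 counts were limited to genes with the Pfam domain, also after their values were seen. Alternatives were a pseudocount of 0.1, no filter, TMM factors, the repeat number as a block, all 8 libraries in 1 fit and leaving out each library. No sequence was used here.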

Additional observations from a re-analysis of the deposited data

Results flagged for a closer look

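Among the precursor genes, 2 phenylalanine ammonia-lyase genes had a day effect that differed between corolla and petal by the interaction test. For c103612.graph_c0 the log2 day effect in corolla minus that in petal was -1.61 ± 0.26 (SE, limma adjusted p = 0.0403). Corolla had 12.70 and 12.58 FPKM on day 7 against 162.3 and 145.08 FPKM on day 1, and petal 34.84 and 50.37 FPKM on day 7 against 173.99 and 144.48 FPKM on day 1. For c93919.graph_c0 it was 2.18 ± 0.32 (limma adjusted p = 0.0321). Corolla had 20.02 and 15.99 FPKM on day 7 against 26.63 and 32.27 FPKM on day 1, and petal 1.55 and 2.14 FPKM on day 7 against 23.98 and 15.97 FPKM on day 1. Both calls ended with no filter on low FPKM (limma adjusted p = 0.0655 and 0.0509). Leaving out 1 of the 8 libraries, both passed without petal day 7 repeat 2, the first alone without petal day 7 repeat 1, and neither without any other library.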

How the results depend on the processing

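Of the compared values of both genes, only that of c100255.graph_c0 between corolla and petal on day 7 changed sign under the alternatives run, at 0.0119 without corolla day 7 repeat 2 and 0.0134 without petal day 7 repeat 2 (range -0.268 to 0.0134). With TMM factors c106745.graph_c0 moved to -3.04 between days in corolla and to 1.63 between corolla and petal on day 7. Leaving out each library, the difference of the day effect of c100255.graph_c0 ranged from 1.85 to 2.28 and that of c106745.graph_c0 from -2.41 to -2.22. Between days c106745.graph_c0 ranged from -3.23 to -3.05 in corolla and from -0.92 to -0.73 in petal, and c100255.graph_c0 from 2.43 to 2.85 and from 0.43 to 0.71. Between corolla and petal, c106745.graph_c0 ranged from 1.50 to 1.56 on day 7 and from 3.76 to 3.94 on day 1, and c100255.graph_c0 from -2.41 to -1.98 on day 1. Over all genes 4820 passed between days in corolla, 2384 in petal, and 173 for the interaction. With no filter these became 2452, 452 and 99, with more genes tested. With all 8 libraries in 1 fit petal gave 3921, and with TMM the interaction gave 280; the cause was not tested. TMM moved the split on day 7 between corolla and petal to 1812 higher and 1565 lower, against 1074 and 1652. Leaving out each library gave 0 to 2932 calls in corolla, 0 to 2164 in petal, 1172 to 2634 between tissues on day 7 (2726 with all), 1654 to 4511 on day 1 (3680 with all) and 14 to 216 for the interaction. With the replicate block the counts were 3403, 2288, 2830, 3584 and 166 in the order corolla, petal, day 7, day 1 and interaction. The block ended 2 list calls in corolla, 2 in petal and 1 of the interaction, among them c93919.graph_c0 in corolla (limma adjusted p = 0.0838), c103697.graph_c2 in petal (0.0550) and c103612.graph_c0 for the interaction (0.0545). Numbers were not taken as pairs, since only 2 exist and no label ties them. Deviations between repeats correlated at 0.293 and 0.139 between tissues on day 7 and day 1. Between days they correlated at -0.00476 in corolla and 0.000841 in petal. The replicate block held 1 repeat term for both days, so a pairing of the tissues within each day was not tested. Counts exist for called genes alone, so the counts behind both genes could be given only for corolla.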

Other observations

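In corolla the counts of c106745.graph_c0 per FPKM, relative to depth, were 0.912 and 0.932 on day 7 against 1.00 and 0.993 on day 1, a difference of -7.50%. Counts gave a day 7 over day 1 ratio of 0.104, and FPKM gave 0.112. Of 873 genes, 57 had a more negative difference in count per FPKM. For c100255.graph_c0 the same difference was 0.0845%, so its counts and FPKM agree closely on its change.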
